A study of Mus musculus with 16 samples.

Results

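Fatty acid oxidation genes encode the enzymes that import fatty acids into mitochondria and break them down, with their peroxisomal counterparts, the thioesterases that release free fatty acids and a few genes known to respond to the same regulator. They were a list of 33 gene symbols with a known function in this pathway. A probe set counted for a gene when the platform annotation gave it that symbol alone. By this rule 31 of the 33 genes had at least 1 probe set, 53 probe sets in all, of 18194 symbols on the array. All 31 genes lay above the filter on low signals and were among the 11037 genes tested. The signals of Acsl1 and Cpt1b were not analysed here, because neither had a probe set with its symbol alone. For Acsl1 the promoter windows alone were read.

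RNA came from the whole aorta of 16 ApoE-/- mice, which lack apolipoprotein E and develop atherosclerosis. The 4 groups of 4 mice were diabetic mice given RBX, diabetic mice, non-diabetic mice given RBX and non-diabetic mice. All 16 came from The Jackson Laboratory, carried the same genotype, were put on a high fat diet at 8 weeks of age, kept on it for 10 weeks and studied when 18 weeks old, so no group shows the aorta without high fat feeding or with apolipoprotein E. Diabetes was induced with STZ (streptozotocin, a toxin of insulin-producing beta cells) at 6 weeks of age, and RBX (ruboxistaurin, which inhibits the beta form of protein kinase C) accompanied the diet. The dose of RBX and the sex of the mice were not given in the sources used here. Each array held the RNA of 1 mouse, and a mouse's number only names it within its group.

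In mitochondrial beta-oxidation a fatty acid is linked to coenzyme A, passed through the inner membrane as an acylcarnitine and shortened in repeated rounds of dehydrogenation, hydration, a further dehydrogenation and thiolysis. Electrons from the acyl-CoA dehydrogenases enter the respiratory chain through electron transfer flavoprotein. Many of these genes are induced by the nuclear receptor PPAR alpha, the product of Ppara, which binds DNA as a partner of the retinoid X receptor. In the aorta the pathway runs in smooth muscle, endothelium and macrophages and at a high rate in the brown-like fat that surrounds the vessel.

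Promoter sequence was read for 26 of the 33 genes, in 27 windows of the 250 bases before the gene start, from RefSeq (GRCm38.p6). The windows below are shown because they belong to the member with the largest RBX difference (Ucp3), the member that followed the brown fat marker Ucp1 most closely (Acadvl), a member without an RBX difference past the test (Cpt1a), and a pair of genes that share a promoter (Hadhb, with Hadha on the opposite strand). Capitals mark the letters AGGTCA, or TGACCT where the match lies on the other strand, the hexamer that nuclear receptors such as PPAR alpha recognise.

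Ucp3, chr7:100472741-100472990, plus strand: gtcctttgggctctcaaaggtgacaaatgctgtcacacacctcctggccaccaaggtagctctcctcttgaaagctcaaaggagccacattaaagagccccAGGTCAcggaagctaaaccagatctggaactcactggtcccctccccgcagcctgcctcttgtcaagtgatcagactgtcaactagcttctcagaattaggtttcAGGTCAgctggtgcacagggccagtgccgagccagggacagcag

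Acadvl, chr11:70015429-70015678, minus strand: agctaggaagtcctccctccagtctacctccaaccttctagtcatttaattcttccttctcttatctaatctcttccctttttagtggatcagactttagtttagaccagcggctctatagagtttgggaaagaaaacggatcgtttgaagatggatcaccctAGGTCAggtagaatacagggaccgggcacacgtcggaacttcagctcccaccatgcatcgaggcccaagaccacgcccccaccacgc

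Cpt1a, chr19:3323051-3323300, plus strand: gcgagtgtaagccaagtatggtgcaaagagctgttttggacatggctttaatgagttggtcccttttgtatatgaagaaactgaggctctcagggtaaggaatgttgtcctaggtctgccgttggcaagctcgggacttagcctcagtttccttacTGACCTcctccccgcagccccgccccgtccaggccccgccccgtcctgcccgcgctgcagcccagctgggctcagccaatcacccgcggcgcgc

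Hadhb, chr5:30155003-30155252, plus strand: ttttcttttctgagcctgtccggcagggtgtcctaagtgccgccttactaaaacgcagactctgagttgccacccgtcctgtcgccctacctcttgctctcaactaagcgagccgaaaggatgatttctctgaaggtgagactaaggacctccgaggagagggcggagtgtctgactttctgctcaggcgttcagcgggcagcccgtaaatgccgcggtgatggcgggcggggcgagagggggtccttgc

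The hexamer stood in 5 of the 27 windows (18.5%), against 14% of the 32851 promoter windows of the same length, counting both strands. Ucp3 held 2 matches, starting 149 and 44 bases before the gene start. Acadvl held 1 match at 87 bases and Cpt1a 1 match at 94 bases. Acadm and Echs1 also held 1 match each, and Hadhb held none. The PPAR alpha element, in which AGGTCA is followed by N (any base) and AGGTCA again, was in 0 of the 27 windows and in 0.0335% of all windows. The motif TNAAGGTCA, a longer form of the hexamer bound by estrogen-related receptors, was in 0 of the 27 and in 1.14% of all windows. Hadha and Hadhb start 272 bases apart on opposite strands, and their windows share 228 bases. The matches are letters in these windows and do not show that a factor binds there.

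Values are MAS5 signals, linear brightness units that the authors scaled so that the mean signal without the highest and lowest 2% of probe sets is 1500.01 on every array. Each gene was tested on the log2 scale with limma across all 16 arrays, and a gene was called at an adjusted p under 0.05 over all 11037 genes. Below, a log2 difference is given with its standard error (SE), and values per mouse stand in the order of mice 1 to 4. The 5 comparisons use the same 4 groups and so share arrays. The number of mice limits the precision, and the p-values measure the spread between mice. Of the 31 probe sets tested, 7 have names ending in _x_at or _s_at, which mark probes that can bind related transcripts (Acaa1a, Acaa2, Acadsb, Angptl4, Hadh, Hadhb and Hsd17b4).

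The arrays of non-diabetic RBX mice stood apart before any gene was tested. The scaled signal of cre, a bacteriophage control RNA added to every hybridisation, was 261860.1 to 294506.5 on diabetic RBX arrays, 207830 to 275438.2 on diabetic arrays, 308744.5 to 575617.6 on non-diabetic RBX arrays and 156464.8 to 249019.6 on non-diabetic arrays. All 4 non-diabetic RBX arrays lay above all others. The Actb ratio, the log2 of the 3′ over the 5′ control signal of that gene, which rises when RNA or its copies are shorter, averaged 1.71 in diabetic RBX, 1.34 in diabetic, 2.08 in non-diabetic RBX and 1.04 in non-diabetic mice. Non-diabetic RBX mouse 4 had the highest value of both. The labels name no batch. Results are given below with each measure as a covariate. Those fits cannot separate either measure from RBX in non-diabetic mice, and its part was not tested further.

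**Figure D1:**
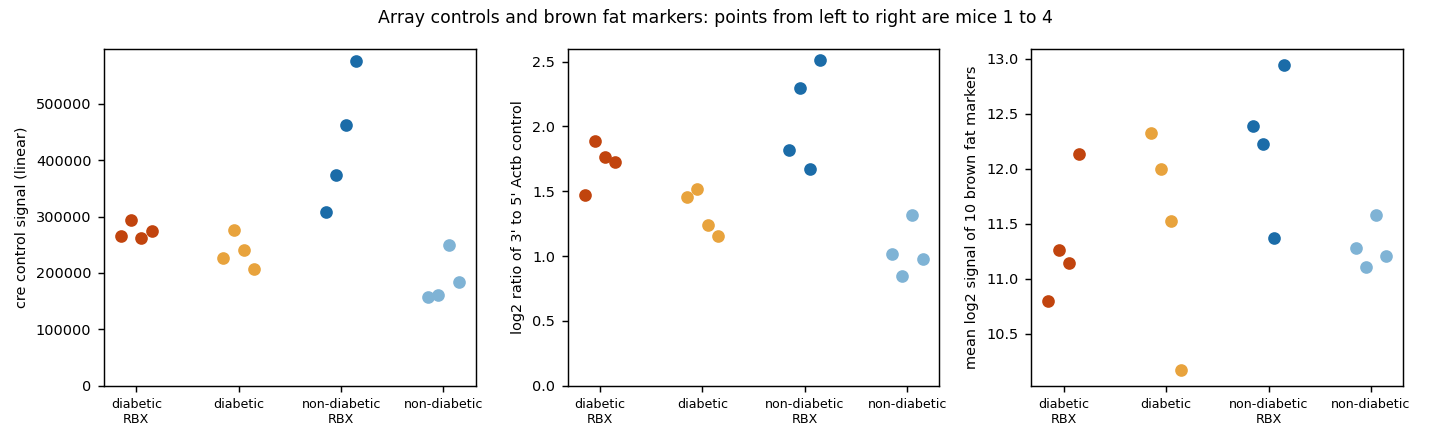
Scaled cre control signal, log2 ratio of 3′ to 5′ Actb control signal and mean log2 signal of 10 brown fat markers on each of the 16 arrays, by group. The 4 non-diabetic RBX arrays have the highest cre signals (308744.5 to 575617.6), and the brown fat markers vary most between mice within the diabetic and RBX groups.

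Fat, muscle and vessel markers were set beside the members because whole aorta can carry other tissues. Of 11 brown adipocyte markers, 10 lay above the filter, and their summed signal was 32666 to 73611 in diabetic RBX mice, 21334 to 84411 in diabetic mice, 39941 to 147350 in non-diabetic RBX mice and 35753 to 47647 in non-diabetic mice. Ucp1, the uncoupling protein that defines brown fat, had 3961, 6033, 4926 and 19553 in diabetic RBX mice, 20850, 10722, 9052 and 1301 in diabetic mice, 26405, 26762, 5644 and 42518 in non-diabetic RBX mice and 6737, 5569, 10529 and 5410 in non-diabetic mice. Ucp1 was thus high in non-diabetic RBX mice 1, 2 and 4, in diabetic mouse 1 and in diabetic RBX mouse 4, and low in diabetic mouse 4. The 7 white adipocyte markers above the filter, of 12 listed, summed to 128830 to 231350 in diabetic RBX mice, 97154 to 217120 in diabetic mice, 158410 to 462760 in non-diabetic RBX mice and 100840 to 176550 in non-diabetic mice. Of 12 skeletal muscle markers only Acta1 passed the filter. Of 11 cardiac markers 5 did (Tnnt2, Actc1, Myl4, Ryr2 and Pln), while the other 6, among them Myh6, Tnni3 and Nppa, did not. These 5 summed to 5420.4 to 11705 in diabetic RBX mice and 3396.3 to 4903.3 in diabetic mice, without overlap. In that comparison 357 of 11037 genes were higher without overlap, and 0 of the 5 cardiac markers passed the limma test described above. In non-diabetic RBX mice the cardiac markers summed to 3579.2 to 6875.4, and in non-diabetic mice to 4901.2 to 6563.9. All 12 smooth muscle markers passed the filter. In bulk tissue, fewer cells of a type and less RNA per cell cannot be told apart.

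Most of the pathway was higher in non-diabetic mice given RBX. Of the 31 members, 21 rose and 1 fell in non-diabetic RBX mice against non-diabetic mice, where 16.5% of all genes tested rose and 15.1% fell. The median log2 difference of the members was 0.79, against 0.03 for all genes tested. Log2 differences ran between -0.62 (Acadsb) and 1.39 (Ucp3), and 30 of 31 were above 0, against 53.1% of all genes. All 4 non-diabetic RBX mice lay above all 4 non-diabetic mice in 12 members, and 14.3% of all genes did so. In each of the other 9 members that rose, non-diabetic RBX mouse 3 alone failed to lie above all 4 non-diabetic mice.

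With log2 cre signal as a covariate, 0 of the 31 members were called and the median was 0.31 (a single member had an unadjusted p under 0.05), and 0 of all genes were called. The median SE then was 0.448, against 0.22 without it. With the Actb ratio as a covariate, 0 were called, 20 of 31 lay below 0, the median was -0.31 and 4 had an unadjusted p under 0.05. The median SE then was 0.307. The Actb ratio was 1.674 to 2.511 in non-diabetic RBX and 0.8465 to 1.317 in non-diabetic mice. Neither it nor cre overlapped between these groups, so these fits cannot separate either measure from RBX. With the mean log2 signal of the 10 brown fat markers as a covariate, chosen after seeing the data, 10 members rose, 1 fell and the median was 0.37, where 24.1% of all genes were called in either direction. These markers include Fabp3, Prdm16 and Ppargc1a, which also stand in the lists of neighbouring pathways below. With Ucp1 alone, also chosen after seeing the data, 14 rose, 1 fell and the median was 0.43, where 25.5% of all genes were called. Without non-diabetic RBX mouse 4, 17 members rose and 1 fell, with a median of 0.64. Without non-diabetic RBX mouse 3, 26 rose and 1 fell, with a median of 0.93. Over all genes, 2661 to 3467 were called when 1 mouse was left out, against 3494 with all mice.

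**Figure D2:**
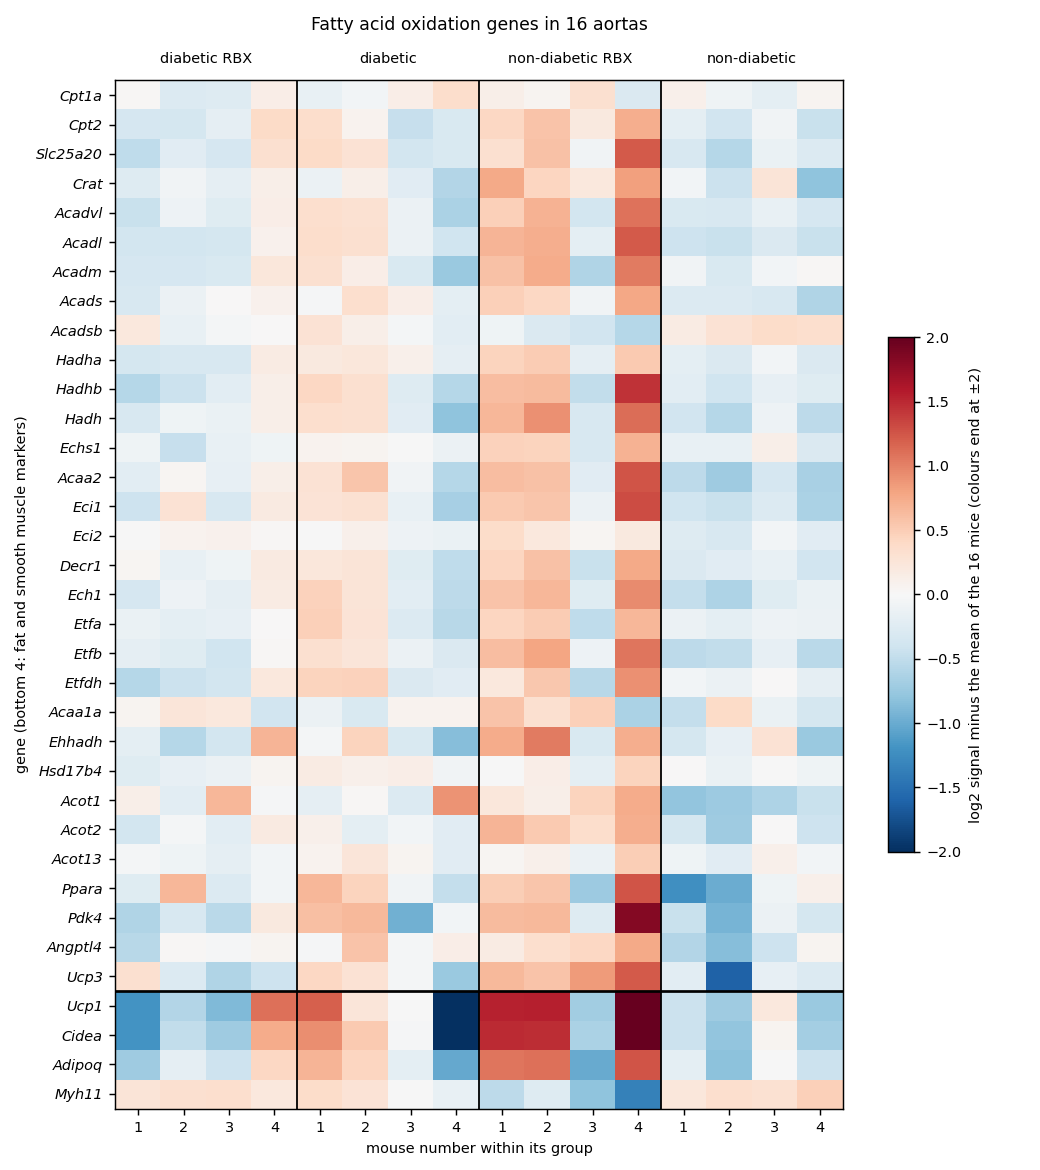
Log2 signal of each of the 31 members, and of the fat markers Ucp1, Cidea and Adipoq and the smooth muscle marker Myh11 in the bottom rows, minus the gene's mean over the 16 mice, with 1 column per mouse. Non-diabetic RBX mice 1, 2 and 4 are red across most members and in the fat markers, while non-diabetic RBX mouse 3 is near or below the mean in many.

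In the carnitine shuttle, 3 of 4 tested genes rose with RBX in non-diabetic mice (Cpt2, Slc25a20 and Crat) and Cpt1a did not pass. Cpt1a encodes a carnitine palmitoyltransferase of the outer membrane, a step that sets the rate of entry. The signal of Cpt1b, another gene of this family, was not analysed here. Cpt1a had 6223, 5981, 7176 and 4666 in non-diabetic RBX mice, against 6177, 5371, 4999.8 and 5981 in non-diabetic mice. The groups overlapped, and the log2 difference was 0.08 with a 95% interval between -0.21 and 0.37. Cpt1a had 5851, 4740.5, 4767 and 6302 in diabetic RBX mice, against 5170, 5528, 6305 and 7285 in diabetic mice, again overlapping.

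Cpt2, which returns the acyl group to coenzyme A inside the mitochondrion, had 3694, 4098, 3149 and 4589 in non-diabetic RBX mice, against 2419, 2120.4, 2632 and 2028 in non-diabetic mice. No mouse overlapped between these groups, and Cpt2 rose 1.68-fold (log2 0.75, SE 0.18, adjusted p = 0.00516). Cpt2 had 2180, 2175, 2429 and 3617 in diabetic RBX mice, against 3506, 2900.3, 2008 and 2247 in diabetic mice, where mouse 4 of the RBX group was the highest of the 8.

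Slc25a20, the carnitine-acylcarnitine carrier of the inner membrane, had 8373, 10101, 6400.3 and 15808 in non-diabetic RBX mice, against 5367, 4542, 6114 and 5542 in non-diabetic mice. The ranges of the groups were separate, and Slc25a20 rose 1.79-fold (log2 0.84, SE 0.23, adjusted p = 0.0109). Slc25a20 had 4726, 5718, 5341 and 8346 in diabetic RBX mice, against 8754, 8177, 5236 and 5414 in diabetic mice, and these overlapped.

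Crat, the carnitine acetyltransferase that exchanges short acyl groups, had 4307, 3419.7, 2947 and 4489 in non-diabetic RBX mice, against 2439, 1892, 3017 and 1447 in non-diabetic mice. RBX mouse 3 lay just below the highest non-diabetic mouse, and Crat rose 1.76-fold (log2 0.82, SE 0.20, adjusted p = 0.00497). Of the other Crat probe sets, the one above the filter gave a log2 difference of -0.38 (SE 0.48). The one below it averaged 533 ± 249.7 in non-diabetic RBX mice and 388 ± 137.5 in non-diabetic mice (SD, n = 4 each), so the probe sets disagree in direction. Crat had 2119, 2429, 2236 and 2762 in diabetic RBX mice, against 2339, 2747, 2178 and 1688 in diabetic mice, with overlap. With the brown fat markers as a covariate Cpt2, Slc25a20 and Crat no longer passed.

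Among the acyl-CoA dehydrogenases, 3 of 5 rose (Acadvl, Acadl and Acads), Acadsb fell and Acadm did not pass. Acadl, the long-chain enzyme, had 22828, 23591, 12419.5 and 33549.9 in non-diabetic RBX mice, against 10651, 10441, 11638 and 10486 in non-diabetic mice. Even RBX mouse 3 exceeded every non-diabetic mouse, and Acadl rose 2.02-fold (log2 1.01, SE 0.22, adjusted p = 0.0022). Acadl had 11108, 11096, 11152 and 15140.1 in diabetic RBX mice, against 18296, 17788, 13164 and 10813 in diabetic mice. In the diabetic groups 3 RBX mice were nearly equal and mouse 4 stood above them, and the groups overlapped.

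Acadvl, the very-long-chain enzyme, had 13109, 15306, 7266 and 19919 in non-diabetic RBX mice, against 7596, 7530.3, 8494 and 7426 in non-diabetic mice. RBX mouse 3 was below all non-diabetic mice and the other 3 were above them all. Acadvl rose 1.68-fold (log2 0.75, SE 0.24, adjusted p = 0.0233), but leaving out any 1 of 5 mice (non-diabetic mice 1, 2 or 4, non-diabetic RBX mice 2 or 4) put the adjusted p at 0.0508 to 0.0864. Acadvl had 6893, 8795, 7957 and 10285 in diabetic RBX mice, against 11889, 11601, 8655 and 6097 in diabetic mice, with wide overlap.

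Acads, the short-chain enzyme, had 3846, 3673, 2633 and 4697 in non-diabetic RBX mice, against 2272, 2274, 2213 and 1821 in non-diabetic mice. The ranges lay apart, and Acads rose 1.70-fold (log2 0.77, SE 0.16, adjusted p = 0.00151). Acads had 2201, 2531, 2772 and 2914 in diabetic RBX mice, against 2712, 3486, 3029 and 2399 in diabetic mice, and these overlapped. Acadm, the medium-chain enzyme, averaged 19932 ± 7929 in non-diabetic RBX mice and 12707 ± 1213 in non-diabetic mice (SD, n = 4 each), a log2 difference of 0.54 that did not pass (adjusted p = 0.135).

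Acadsb, which acts on short branched chains from isoleucine, was the single member that fell. Acadsb had 3582, 3087, 2909 and 2540.1 in non-diabetic RBX mice, against 4262, 4601, 4878 and 4772 in non-diabetic mice. Every RBX mouse lay below every non-diabetic mouse, as in 13.2% of all genes, and Acadsb fell by 0.62 on the log2 scale (SE 0.12, adjusted p = 0.00105). Acadsb had 4365, 3406, 3688 and 3788 in diabetic RBX mice, against 4610, 4091, 3679 and 3284 in diabetic mice, and these overlapped.

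**Figure D3:**
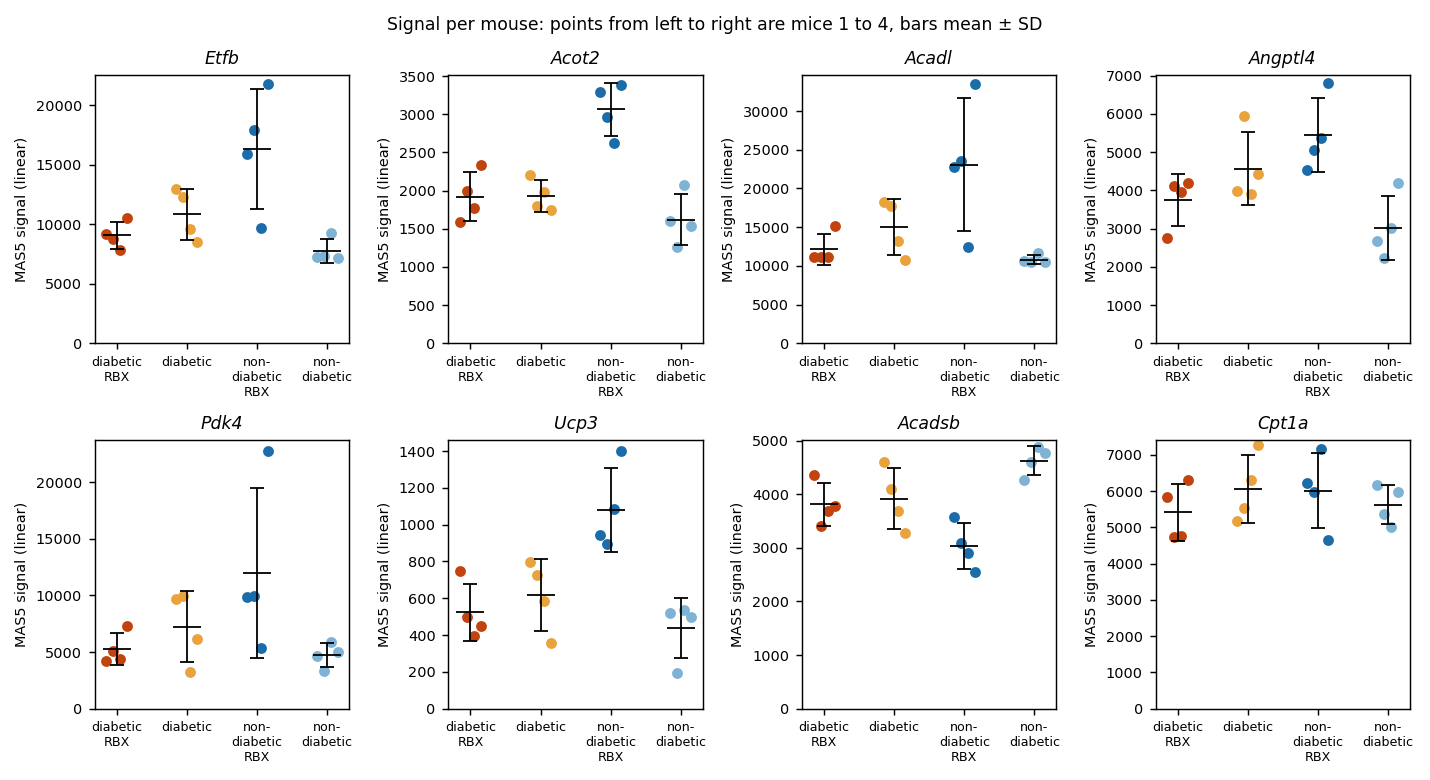
MAS5 signal of 8 members in each mouse, with the mean ± SD of each group of 4. Etfb, Acot2, Acadl, Angptl4, Pdk4 and Ucp3 have their highest group mean in non-diabetic RBX mice, Acadsb has its lowest there, and Cpt1a overlaps between all groups.

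All 5 genes of hydration, the further dehydrogenation and thiolysis rose with RBX in non-diabetic mice. Hadha and Hadhb encode the alpha and beta subunits of the trifunctional protein, which carries out these steps on long chains, and the window printed above for Hadhb lies between the starts of both genes. Hadha had 8707, 9119.8, 5654 and 9244 in non-diabetic RBX mice, against 5586, 5219, 6169.7 and 5238 in non-diabetic mice. RBX mouse 3 lay among the non-diabetic mice, and Hadha rose 1.45-fold (log2 0.53, SE 0.15, adjusted p = 0.0123). Hadha had 5045, 5153, 5135 and 7196 in diabetic RBX mice, against 7304, 7486, 6903 and 5656 in diabetic mice, where RBX mouse 4 lay within the range of the diabetic mice and the other 3 RBX mice lay below it.

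Hadhb had 27326, 27893, 12774 and 48539 in non-diabetic RBX mice, against 15433, 13621, 16021 and 15173 in non-diabetic mice. RBX mouse 3 was the lowest of these 8 mice and RBX mouse 4 the highest. Hadhb rose 1.74-fold (log2 0.80, SE 0.29, adjusted p = 0.0396), and the call was lost when any 1 of the 8 mice other than RBX mouse 3 was left out (adjusted p 0.0547 to 0.147). Hadhb had 11989.6, 13318, 15458 and 19403 in diabetic RBX mice, against 23794, 22228, 14996 and 12033 in diabetic mice, with overlap.

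Acaa2, the mitochondrial thiolase, had 13709, 13402, 7631 and 21462 in non-diabetic RBX mice, against 6248, 5456, 7085 and 5738 in non-diabetic mice. All 4 RBX mice exceeded all 4 non-diabetic mice, and Acaa2 rose 2.16-fold (log2 1.11, SE 0.24, adjusted p = 0.00228). Both other Acaa2 probe sets rose as well, by log2 0.86 and 0.88. Acaa2 had 7773, 9238, 7964 and 9768 in diabetic RBX mice, against 10963, 13150.4, 8549.9 and 6011 in diabetic mice, and these overlapped.

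Hadh, the hydroxyacyl-CoA dehydrogenase of shorter chains, had 41082, 48598, 20569 and 56247 in non-diabetic RBX mice, against 19729, 17458, 24049.6 and 17893 in non-diabetic mice. RBX mouse 3 lay within the non-diabetic range, and Hadh rose 1.99-fold (log2 0.99, SE 0.26, adjusted p = 0.00804). Hadh had 20687, 24255, 23569 and 27925 in diabetic RBX mice, against 32517, 32336, 21971 and 14827 in diabetic mice, with wide overlap.

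Echs1, the short-chain enoyl-CoA hydratase, had 6850.2, 6746, 3987 and 8031 in non-diabetic RBX mice, against 4493, 4493, 5373 and 4086 in non-diabetic mice. RBX mouse 3 was the lowest of the 8, and Echs1 rose 1.35-fold (log2 0.43, SE 0.16, adjusted p = 0.0485), the highest adjusted p of the members that rose. Without any 1 of 6 mice (non-diabetic mice 1, 2 or 4, non-diabetic RBX mice 1, 2 or 4) its adjusted p was 0.0935 to 0.16. Echs1 had 4694, 3610.4, 4468 and 4662 in diabetic RBX mice, against 5196, 5167, 4928 and 4588 in diabetic mice, with overlap. With the brown fat markers as a covariate Acaa2 still passed, while Hadha, Hadhb, Hadh and Echs1 did not.

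All 4 enzymes that handle double bonds rose. Eci1 and Eci2 are enoyl-CoA isomerases, Ech1 is a dienoyl-CoA isomerase and Decr1 is a dienoyl-CoA reductase. Eci1 had 7222, 7339, 4613 and 12393 in non-diabetic RBX mice, against 3812, 3664, 4138 and 3230.5 in non-diabetic mice. The groups did not overlap, and Eci1 rose 2.01-fold (log2 1.005, SE 0.25, adjusted p = 0.00519). Eci1 had 3753, 6125, 4014 and 5646 in diabetic RBX mice, against 6026, 6155, 4498 and 3177 in diabetic mice, and these overlapped.

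Eci2 had 8417, 7552, 6701 and 7457 in non-diabetic RBX mice, against 5428, 5212, 6287 and 5580.5 in non-diabetic mice. The ranges of the groups were separate, and the rise was small and even, 1.34-fold (log2 0.42, SE 0.09, adjusted p = 0.00208). Eci2 had 6501, 6857, 6907 and 6586 in diabetic RBX mice, against 6505, 6979.8, 6069.5 and 5957 in diabetic mice, and these overlapped.

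Ech1 had 13445, 14466, 7685 and 17574 in non-diabetic RBX mice, against 6539, 5900.4, 7654 and 8259.9 in non-diabetic mice. RBX mouse 3 lay within the non-diabetic range, and Ech1 rose 1.81-fold (log2 0.86, SE 0.22, adjusted p = 0.0073). Ech1 had 7187, 8441, 8060.2 and 10137 in diabetic RBX mice, against 12468, 10884, 7835 and 6346 in diabetic mice, with overlap.

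Decr1 had 9160.1, 10214, 4998 and 11484 in non-diabetic RBX mice, against 5560.3, 5786, 6131 and 5221 in non-diabetic mice. RBX mouse 3 was the lowest of the 8, and Decr1 rose 1.51-fold (log2 0.60, SE 0.21, adjusted p = 0.0336). Without any 1 of 6 mice (non-diabetic mice 1, 2 or 4, non-diabetic RBX mice 1, 2 or 4) its adjusted p was 0.0603 to 0.111. Decr1 had 6964, 6121, 6400 and 7731 in diabetic RBX mice, against 7955, 8084, 5764 and 4759 in diabetic mice, with overlap. With the brown fat markers as a covariate Eci1 and Eci2 still passed, while Ech1 and Decr1 did not.

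Of the electron transfer genes, Etfb rose, and Etfa and Etfdh did not pass. Etfa and Etfb encode the subunits of electron transfer flavoprotein, and Etfdh the enzyme that passes its electrons to ubiquinone. Etfb had 15928, 17893, 9679.7 and 21835 in non-diabetic RBX mice, against 7249, 7358, 9287 and 7149.6 in non-diabetic mice. The ranges lay apart, and Etfb rose 2.03-fold (log2 1.02, SE 0.19, adjusted p = 0.000687). Etfb had 9162, 8754, 7869 and 10547 in diabetic RBX mice, against 12969, 12320, 9628 and 8495 in diabetic mice, and these overlapped. Etfa averaged 12001 ± 3654 in non-diabetic RBX mice and 8632 ± 233 in non-diabetic mice, and Etfdh 5189.6 ± 2031 and 3776 ± 208 in the same groups (SD, n = 4 each). Their log2 differences of 0.41 and 0.37 had adjusted p-values of 0.155 and 0.277.

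None of the 3 peroxisomal genes passed in any of the 5 comparisons. Ehhadh, the L-bifunctional enzyme, averaged 1131 ± 383 in non-diabetic RBX mice and 639.5 ± 191 in non-diabetic mice, with an adjusted p of 0.0822. Hsd17b4, the D-bifunctional enzyme, averaged 8424 ± 1643 and 7492 ± 344 in the same groups, and Acaa1a, the peroxisomal thiolase, 2696 ± 846 and 2111 ± 596 (SD, n = 4 each). The adjusted p was 0.338 for Hsd17b4 and 0.302 for Acaa1a, whose other probe set rose by log2 0.90 (adjusted p = 0.00903).

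Of the thioesterases, which split acyl-CoA into free fatty acid and coenzyme A, Acot1 and Acot2 rose and Acot13 did not pass. Acot2, the mitochondrial form, had 3298, 2958, 2622 and 3384 in non-diabetic RBX mice, against 1605, 1259.6, 2073 and 1539 in non-diabetic mice. The groups were well apart, and Acot2 rose 1.91-fold (log2 0.94, SE 0.15, adjusted p = 0.00022), the lowest adjusted p of the 31 members. Acot2 had 1592, 1992, 1770.3 and 2331 in diabetic RBX mice, against 2207, 1796, 1979.5 and 1749.5 in diabetic mice, and these overlapped.

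Acot1, the cytosolic form, had 627, 585, 733 and 904 in non-diabetic RBX mice, against 313, 324, 349 and 395 in non-diabetic mice. All 4 RBX mice exceeded all 4 non-diabetic mice, and Acot1 rose 2.04-fold (log2 1.03, SE 0.28, adjusted p = 0.00939). Acot1 had 583, 466, 857 and 532 in diabetic RBX mice, against 477, 548, 446 and 1008 in diabetic mice, where diabetic mouse 4 was the highest of all 16. Acot1 and Acot2 are near copies of each other, so the division of signal between them is uncertain. Acot13 averaged 4924 ± 932 in non-diabetic RBX mice and 4289.6 ± 405 in non-diabetic mice (SD, n = 4 each), with an adjusted p of 0.276.

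The last group holds Ppara and 3 genes known as its targets, all of which rose, while Ppara did not pass. Ppara had 1280.4, 1345, 552 and 2189 in non-diabetic RBX mice, against 391, 458, 857 and 978 in non-diabetic mice. RBX mouse 3 lay among the non-diabetic mice, and the log2 difference was 0.95 (SE 0.38, adjusted p = 0.0659). Of the other Ppara probe sets, 1 rose by log2 0.97 (adjusted p = 0.0402) and 1 had a log2 difference of 1.27 (adjusted p = 0.108). Ppara had 773, 1445, 758 and 884 in diabetic RBX mice, against 1448, 1238, 868 and 654 in diabetic mice, with overlap.

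Pdk4, a kinase that switches off pyruvate dehydrogenase and so spares glucose, had 9894, 9992, 5316 and 22777 in non-diabetic RBX mice, against 4665, 3342, 5883 and 4972 in non-diabetic mice. RBX mouse 4 stood far above all others, RBX mouse 3 lay within the non-diabetic range, and Pdk4 rose 2.26-fold (log2 1.18, SE 0.36, adjusted p = 0.0196). Without non-diabetic RBX mouse 4 its log2 difference was 0.80 (adjusted p = 0.0734), and without non-diabetic mouse 2 it was 1.02 (adjusted p = 0.064). Pdk4 had 4172, 5097, 4397 and 7271 in diabetic RBX mice, against 9650, 9933, 3277 and 6156 in diabetic mice, with overlap.

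Angptl4, a secreted inhibitor of lipoprotein lipase, had 4535, 5058, 5358 and 6796 in non-diabetic RBX mice, against 2671, 2224, 3014 and 4181 in non-diabetic mice. The groups did not overlap, and Angptl4 rose 1.83-fold (log2 0.87, SE 0.19, adjusted p = 0.00219). Angptl4 had 2741, 4103, 3949 and 4188 in diabetic RBX mice, against 3970.5, 5949.5, 3913 and 4423 in diabetic mice, and these overlapped.

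Ucp3, a carrier of the inner mitochondrial membrane found in muscle and brown fat, had 943, 893, 1086 and 1401 in non-diabetic RBX mice, against 519, 194, 538 and 498 in non-diabetic mice. The ranges of the groups were separate, and Ucp3 rose 2.62-fold (log2 1.39, SE 0.34, adjusted p = 0.00442), the largest fold of the members, with non-diabetic mouse 2 far below its group. Ucp3 had 749, 499, 394 and 452 in diabetic RBX mice, against 797, 729, 585 and 357 in diabetic mice, and these overlapped. With the brown fat markers as a covariate Acot1, Acot2, Angptl4 and Ucp3 still passed and Pdk4 did not.

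In diabetic mice no member passed the test for RBX. Of the 31 members, 0 were called in diabetic RBX mice against diabetic mice by limma, where 0.0453% of all genes were called, and 0 had an unadjusted p under 0.05, against 9.2% of all genes. The median log2 difference was -0.11, and 6 members were above 0, against 46.7% of all genes. The 6 with the smallest p were Hadha (log2 -0.29, SE 0.15, adjusted p = 0.574), Hsd17b4 (log2 -0.20, SE 0.12, adjusted p = 0.613), Etfdh (log2 -0.39, SE 0.25, adjusted p = 0.665), Angptl4 (log2 -0.28, SE 0.19, adjusted p = 0.677), Acadl (log2 -0.29, SE 0.22, adjusted p = 0.731) and Etfb (log2 -0.24, SE 0.19, adjusted p = 0.739). The 95% interval of Hadha ran between -0.61 and 0.03, and that of Etfb between -0.65 and 0.16. With the Actb ratio as a covariate the median was -0.47, 20 members had an unadjusted p under 0.05 and 0 were called.

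**Figure D4:**
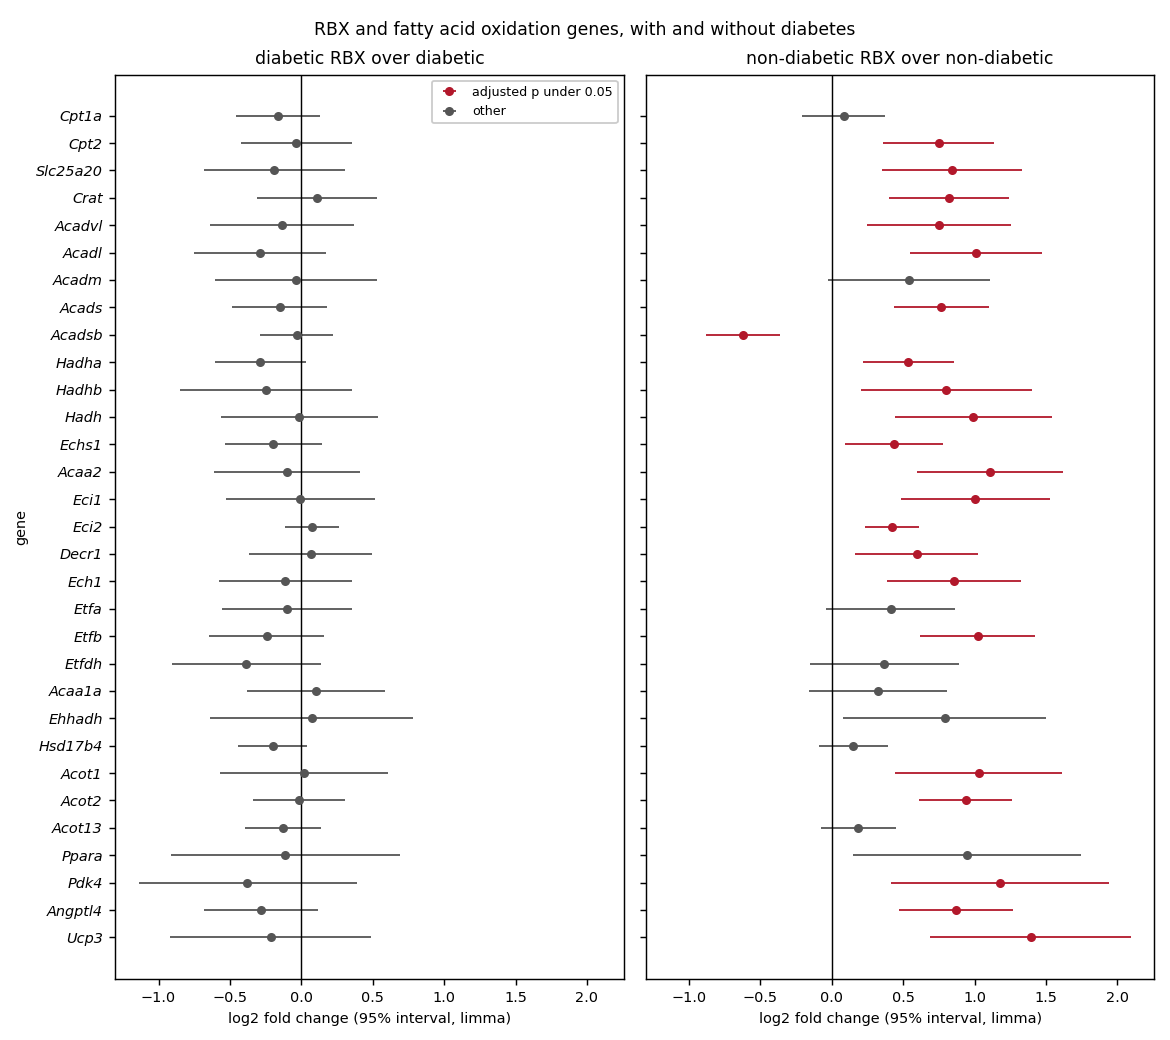
Log2 fold change with its 95% interval (limma) for each of the 31 members, diabetic RBX over diabetic mice on the left and non-diabetic RBX over non-diabetic mice on the right. On the left no member passes, and on the right 21 rise and Acadsb falls.

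The difference between these responses was tested as an interaction, in which the log2 RBX difference of non-diabetic mice was subtracted from that of diabetic mice. In 8 members the RBX difference was lower in diabetic mice and in 1 it was higher, where 5.51% and 6.03% of all genes were called in these directions. The median interaction of the members was -0.89. The 8 were Etfb (log2 -1.265, SE 0.27, adjusted p = 0.00638), Acot2 (log2 -0.95, SE 0.22, adjusted p = 0.0097), Angptl4 (log2 -1.15, SE 0.27, adjusted p = 0.0105), Acadl (log2 -1.30, SE 0.31, adjusted p = 0.0127), Acads (log2 -0.92, SE 0.22, adjusted p = 0.014), Hadha (log2 -0.82, SE 0.21, adjusted p = 0.0192), Acaa2 (log2 -1.21, SE 0.34, adjusted p = 0.0296) and Ucp3 (log2 -1.61, SE 0.47, adjusted p = 0.0352). Acadsb was the 1 that was higher (log2 0.59, SE 0.17, adjusted p = 0.0354). Etfb thus had a log2 RBX difference of -0.24 in diabetic mice and 1.02 in non-diabetic mice, and Ucp3 of -0.22 and 1.39. Acadsb had -0.03 in diabetic mice and -0.62 in non-diabetic mice.

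Of these 9 interactions, Etfb, Acot2, Angptl4, Acadl, Acads and Hadha passed with any 1 of the 16 mice left out. Acaa2, Ucp3 and Acadsb did not pass in 6, 8 and 10 of the 16 such fits, with adjusted p-values of up to 0.0612, 0.0723 and 0.0783. Without non-diabetic RBX mouse 3 there were 21 members lower and 0 higher. Over all genes, 771 to 1530 were called across the 16 such fits, against 1274 with all mice. With cre or the Actb ratio as a covariate 0 members were called (7 had an unadjusted p under 0.05 in each), and with the brown fat markers 4 were lower and 1 higher, where 4.77% and 5.01% of all genes were.

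Diabetic and non-diabetic mice were also compared without and with RBX. Without RBX, 29 of 31 members were above 0 in diabetic mice against non-diabetic mice, with a median of 0.25, where 52.4% of all genes were above 0. Limma called 0 (0.652% of all genes were called), and 5 had an unadjusted p under 0.05 (15.2% of all genes). The 6 with the smallest p were Angptl4 (log2 0.61, SE 0.19, adjusted p = 0.126), Acot1 (log2 0.77, SE 0.28, adjusted p = 0.188), Acads (log2 0.43, SE 0.16, adjusted p = 0.195), Acaa2 (log2 0.60, SE 0.24, adjusted p = 0.237), Etfb (log2 0.47, SE 0.19, adjusted p = 0.243) and Acadsb (log2 -0.25, SE 0.12, adjusted p = 0.343). In Acot1 and Acads all 4 diabetic mice lay above all 4 non-diabetic mice, and 4.56% of all genes did so. Acadsb and Acadm were the members below 0. With array weights, which give less weight to arrays that vary more, 4 members rose, where 5.6% of all genes rose. With the Actb ratio as a covariate 14 members were above 0 and 17 below, with a median of -0.02, and with cre the median was 0.14. In both fits 0 were called, and 3 and 1 had an unadjusted p under 0.05.

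With RBX, 30 of 31 members were below 0 in diabetic RBX mice against non-diabetic RBX mice, with a median of -0.60, where 44.5% of all genes were above 0. By limma 4 fell, where 2.66% of all genes fell, namely Acot2 (log2 -0.68, SE 0.15, adjusted p = 0.0118), Etfb (log2 -0.79, SE 0.19, adjusted p = 0.0175), Acadl (log2 -0.86, SE 0.22, adjusted p = 0.0242) and Hadha (log2 -0.53, SE 0.15, adjusted p = 0.0419). Crat (log2 -0.65, SE 0.20, adjusted p = 0.0555) and Cpt2 (log2 -0.60, SE 0.18, adjusted p = 0.057) came next and did not pass. All 4 diabetic RBX mice lay below all 4 non-diabetic RBX mice in 4 members (Acot2, Crat, Angptl4 and Ucp3), and 6.26% of all genes did so. Acadsb was the single member above 0.

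Each of these 4 calls was lost when certain single mice were left out. Acot2 did not pass without diabetic RBX mouse 1 (adjusted p = 0.0507), and Etfb did not pass without non-diabetic RBX mouse 4 (0.0583) or diabetic RBX mouse 3 (0.063). Acadl did not pass without any 1 of non-diabetic RBX mice 2 and 4 and diabetic RBX mice 1, 2 and 3, at adjusted p-values of 0.0525 to 0.0772. Hadha did not pass without any 1 of non-diabetic RBX mice 1, 2 and 4 and diabetic RBX mice 1, 2 and 3, at 0.0768 to 0.119. Without non-diabetic RBX mouse 3, 20 members fell. Over all genes, 400 to 918 were called without 1 mouse, against 784 with all mice. With cre, the Actb ratio, the brown fat markers or Ucp1 as a covariate, 0 members fell (5, 6, 7 and 7 had an unadjusted p under 0.05). With those covariates 0.154%, 0.797%, 1.43% and 1.48% of all genes fell.

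The order of the group means was also counted. The mean log2 signal was highest in non-diabetic RBX mice for 29 of 31 members and for 38.8% of all genes, the exceptions among the members being Cpt1a (highest in diabetic mice) and Acadsb (highest in non-diabetic mice). It was lowest in non-diabetic mice for 23 members and for 32.8% of all genes, in diabetic RBX mice for 7 and in non-diabetic RBX mice for 1 (Acadsb). In 17 members, and in 10.2% of all genes, the groups ran downwards as non-diabetic RBX, diabetic, diabetic RBX, non-diabetic. The other 14 members showed 5 other orders. Of the steps within this order, those of diabetic RBX against diabetic mice and of diabetic against non-diabetic mice passed the test in 0 members.

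Mice within a group also differed together. Non-diabetic RBX mouse 4 was the highest of all 16 mice in 25 of 31 members, and non-diabetic RBX mouse 3 was the lowest of its group in 25. Diabetic mouse 4 was the lowest of its group in 23 members, diabetic RBX mouse 4 the highest of its group in 22 and non-diabetic mouse 3 the highest of its group in 22. The median coefficient of variation of the members was 16.6% in diabetic RBX, 25.4% in diabetic, 31% in non-diabetic RBX and 10.6% in non-diabetic mice. For all genes tested it was 12.8%, 13.7%, 17.8% and 12.5% in the same order, so the members' median was below that of all genes in non-diabetic mice and above it in the other 3 groups.

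In most members this shared variation followed Ucp1, and only Ucp1 and the cre signal were correlated with the members. The white adipocyte sums varied too, with 217120, 196810, 159460 and 97154 in diabetic mice. They were 298490, 347230, 158410 and 462760 in non-diabetic RBX mice, and their relation to the members was not tested. After the group mean was taken from each mouse's log2 signal, the correlation with Ucp1 over the 16 mice had a median r of 0.789 among the members, between -0.549 and 0.909, and 25 of 31 were above 0.5. Among 11005 other genes tested the median r was -0.0242 and 8.71% were above 0.5. For Acadvl, r was 0.909 and rho 0.915, each with a permutation p of 1e-05 within groups, the smallest that 100000 permutations can give, and an adjusted p of 0.00031 over 62 relations. Without the 2 mice farthest from the median in Ucp1 (diabetic mouse 4 and non-diabetic RBX mouse 3) r for Acadvl was 0.83. For Hadh, r was 0.907 and rho 0.903, with permutation p-values of 1e-05 for each, and r was 0.803 without those mice.

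By r, 23 of 31 members passed at an adjusted permutation p under 0.05 over the 62 relations. Without diabetic mouse 4 and non-diabetic RBX mouse 3, some of the 23 had an unadjusted permutation p above 0.05. These were Acads (r = 0.478, p = 0.12), Ppara (r = 0.4, p = 0.158), Ehhadh (r = 0.676, p = 0.0679), Echs1 (r = 0.482, p = 0.0596) and Acot13 (r = 0.459, p = 0.0575). The rest of the 23 stayed under 0.05. Over all 16 mice Angptl4 was not among the 23 (r = 0.16, rho = 0.191, permutation p = 0.579 and 0.504), nor was Ucp3 (r = 0.379, rho = 0.344, permutation p = 0.152 and 0.228). Cpt1a (r = -0.544, rho = -0.515, permutation p = 0.0814 and 0.0853), Acot1 (r = -0.549, rho = -0.474, permutation p = 0.117 and 0.12) and Acaa1a (r = -0.467, rho = -0.556, permutation p = 0.0782 and 0.0278) ran against Ucp1 without passing after adjustment. Without the same 2 mice r was -0.202 for Cpt1a and -0.239 for Acot1, so both values rest on them, and it was -0.472 for Acaa1a (permutation p = 0.0419, unadjusted). Against the cre signal the members had a median r of 0.262, 2 of 31 were above 0.5 (7.18% of other genes) and 0 passed by r. By rho Acot13 passed (rho = 0.662, permutation p = 0.0127, adjusted p = 0.0359), with r = 0.673 (permutation p = 0.0305) and r = 0.39 without the 2 mice farthest from the median in cre (non-diabetic RBX mouse 4 and non-diabetic mouse 3). The part of adipose tissue in the RBX differences was not tested beyond the fits with the brown fat markers and Ucp1 given above.

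**Figure D5:**
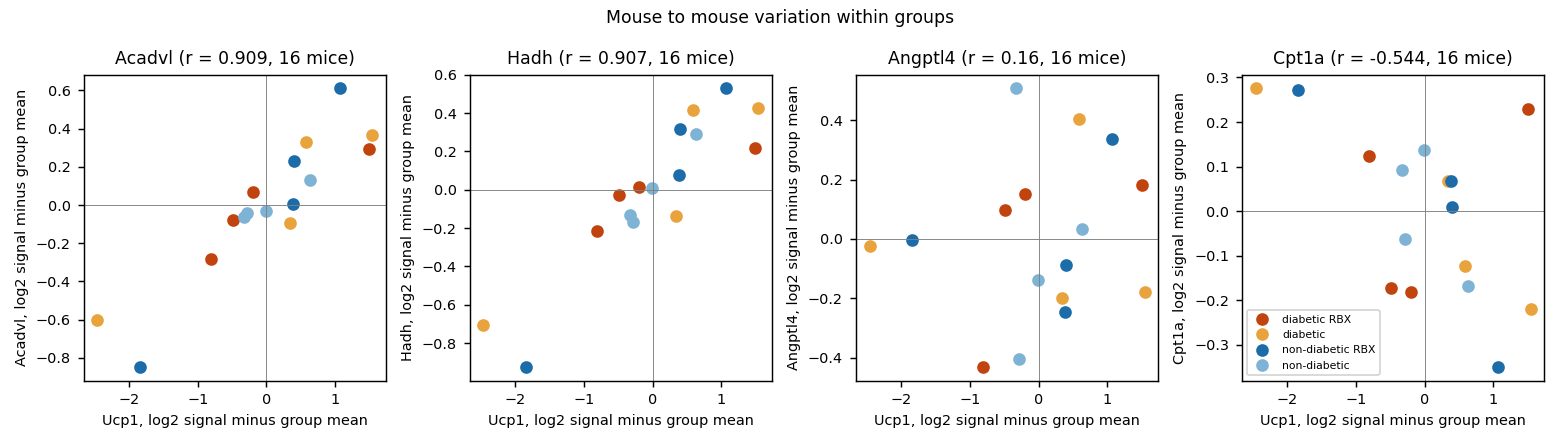
Log2 signal of Acadvl, Hadh, Angptl4 and Cpt1a against that of Ucp1, each minus its group mean, for the 16 mice coloured by group. Acadvl and Hadh rise with Ucp1 (r = 0.909 and 0.907), Angptl4 does not follow it (r = 0.16) and Cpt1a runs the other way (r = -0.544), with diabetic mouse 4 and non-diabetic RBX mouse 3 at the left.

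A further 15 probe sets above the filter, on 10 of the members, were left out of the test of 1 probe set per gene. In non-diabetic RBX mice against non-diabetic mice, 12 of the 15 had the direction of the tested probe set and 7 rose. The 3 that ran the other way were on Crat, Hadhb (log2 -0.10, SE 0.25) and Hsd17b4 (log2 -0.24, SE 0.09). In the interaction, 12 of 15 had the same direction and 2 passed, on Acaa2 (log2 -1.43, adjusted p = 0.0175) and Slc25a20 (log2 -1.24, adjusted p = 0.0203).

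Genes of neighbouring pathways, listed by function, were counted in non-diabetic RBX mice against non-diabetic mice, where 16.5% of all genes rose and 15.1% fell. The counts for the other peroxisomal genes, the pyruvate dehydrogenase list and the transcriptional regulators lie near these shares. Of 9 tested genes of fatty acid uptake and binding 6 rose, led by Lpl, the lipase that frees fatty acids from lipoproteins (log2 0.94, SE 0.19, adjusted p = 0.00124), Cd36, a fatty acid receptor (log2 1.07, SE 0.22, adjusted p = 0.00153), Fabp4, a fatty acid binding protein of adipocytes and macrophages (log2 1.23, SE 0.26, adjusted p = 0.00194), and Gpihbp1, the endothelial anchor of lipoprotein lipase (log2 1.53, SE 0.33, adjusted p = 0.00201). Of 10 other genes of fatty acid activation and carnitine, 3 rose and 1 fell. Acsl5, an acyl-CoA synthetase (log2 0.40, SE 0.11, adjusted p = 0.00885), Acacb, the acetyl-CoA carboxylase whose product inhibits entry into mitochondria (log2 1.09, SE 0.35, adjusted p = 0.0247), and Acss1, a mitochondrial acetyl-CoA synthetase (log2 0.58, SE 0.20, adjusted p = 0.0293), rose, and Crot, the peroxisomal carnitine octanoyltransferase (log2 -0.45, SE 0.10, adjusted p = 0.00263), fell.

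Of 6 other acyl-CoA dehydrogenases, 0 passed by limma and 1 had an unadjusted p under 0.05 (median log2 difference 0.07). Of 13 other peroxisomal genes 3 rose, namely Pex11a, a factor of peroxisome division (log2 0.69, SE 0.18, adjusted p = 0.00847), Acaa1b, another peroxisomal thiolase (log2 1.75, SE 0.53, adjusted p = 0.0174), and Cat, catalase (log2 0.41, SE 0.14, adjusted p = 0.0368). Of 4 genes of ketone body metabolism 2 fell, Bdh1, the hydroxybutyrate dehydrogenase (log2 -1.05, SE 0.21, adjusted p = 0.00125), and Oxct1, which activates acetoacetate for use (log2 -0.36, SE 0.12, adjusted p = 0.0343).

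Of 15 citrate cycle genes 7 rose and 1 fell, with a median log2 difference of 0.37. Idh3g and Idh3b, subunits of isocitrate dehydrogenase, rose (log2 0.75, SE 0.15, adjusted p = 0.00114, and log2 0.54, SE 0.16, adjusted p = 0.0137), as did Sdhb, the iron-sulfur subunit of succinate dehydrogenase (log2 0.57, SE 0.13, adjusted p = 0.00335), while Suclg2, a succinyl-CoA ligase subunit, fell (log2 -0.58, SE 0.15, adjusted p = 0.0063). Of 10 genes of pyruvate dehydrogenase and its regulators 2 rose and 2 fell. Pdhb, a subunit of the complex (log2 0.46, SE 0.16, adjusted p = 0.0314), and the kinase Pdk2 (log2 0.55, SE 0.19, adjusted p = 0.0317) rose, and the kinase Pdk3 (log2 -1.02, SE 0.21, adjusted p = 0.00149) and the phosphatase Pdp1 (log2 -0.88, SE 0.17, adjusted p = 0.000958) fell. Of 11 transcriptional regulators 2 rose, the coactivator Ppargc1b (log2 0.91, SE 0.26, adjusted p = 0.013) and the adipocyte receptor Pparg (log2 0.78, SE 0.28, adjusted p = 0.0386), and 1 fell, Prdm16, which acts in brown fat (log2 -0.51, SE 0.13, adjusted p = 0.00629).

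The interaction test also called genes of these lists, where 5.51% of all genes were lower and 6.03% higher. For the 11 regulators (1 lower, 1 higher) and the 10 pyruvate dehydrogenase genes (1 higher) the counts lie near these shares. In fatty acid uptake 5 of 9 genes had a lower RBX difference in diabetic mice, among them Cd36 (log2 -1.59, SE 0.31, adjusted p = 0.00362), Lpl (log2 -0.94, SE 0.27, adjusted p = 0.0298), Fabp4 (log2 -1.27, SE 0.37, adjusted p = 0.0341) and Fabp5, another fatty acid binding protein (log2 -0.98, SE 0.29, adjusted p = 0.0356). In the citrate cycle 3 of 15 did, Sdhb (log2 -0.79, SE 0.19, adjusted p = 0.0125), Idh3g (log2 -0.74, SE 0.21, adjusted p = 0.0307) and Ogdh, a subunit of oxoglutarate dehydrogenase (log2 -0.65, SE 0.20, adjusted p = 0.0455), and Pparg did among the regulators (log2 -1.29, SE 0.39, adjusted p = 0.0402). Bdh1 (log2 1.60, SE 0.30, adjusted p = 0.00267), Pdp1 (log2 0.79, SE 0.24, adjusted p = 0.0423) and Prdm16 (log2 0.74, SE 0.18, adjusted p = 0.0146) had a higher RBX difference in diabetic mice. In diabetic RBX mice against diabetic mice, and in diabetic against non-diabetic mice without RBX, 0 genes of these 8 pathway lists passed. Of all genes 0.0453% and 0.652% were called there. In diabetic RBX against non-diabetic RBX mice Sdhb (log2 -0.52, SE 0.13, adjusted p = 0.0221) and Fh1, fumarase (log2 -0.58, SE 0.16, adjusted p = 0.038), fell, and Bdh1 (log2 0.85, SE 0.21, adjusted p = 0.0215) and Prdm16 (log2 0.55, SE 0.13, adjusted p = 0.015) rose. There 2.66% of all genes fell and 4.44% rose.

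Cell type markers were counted in non-diabetic RBX mice against non-diabetic mice, where 16.5% of all genes rose and 15.1% fell. The counts for brown adipocyte and cardiac markers lie near these shares. Of 7 white adipocyte markers 4 rose, Fabp4, Pnpla2, Car3 and Cidec (median log2 difference 0.97). Of 10 brown adipocyte markers 2 rose, Dio2 and Otop1, and 1 fell, Prdm16 (median 0.999). Ucp1 averaged 25332 ± 15120 in non-diabetic RBX mice and 7061 ± 2386 in non-diabetic mice (SD, n = 4 each), a difference that did not pass. Of 12 smooth muscle markers 8 fell and 2 rose (median -1.02), of 12 endothelial markers 10 rose (median 0.72), and of 12 macrophage markers 7 rose (median 0.69). Of 9 fibroblast markers 4 rose (median 0.27), and of 5 cardiac markers 1 fell, the calcium channel gene Ryr2. Fabp4, Fabp3, Prdm16 and Ppargc1a stand in a pathway list as well.

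Markers were also counted in the other comparisons. In diabetic RBX against non-diabetic RBX mice 4.44% of all genes rose and 2.66% fell. There 7 of 12 smooth muscle markers rose (median 0.81), and 1 of 7 white adipocyte markers (median -0.67) and 1 of 9 fibroblast markers fell. Of 10 brown adipocyte markers 1 rose and 1 fell (median -1.20). In the interaction 6.03% of all genes were higher and 5.51% lower. There 8 of 12 smooth muscle, 1 of 10 brown adipocyte and 1 of 5 cardiac markers were higher. Lower were 6 of 12 endothelial, 4 of 12 macrophage, 2 of 7 white adipocyte and 1 of 9 fibroblast markers. In diabetic RBX against diabetic mice 0 markers of these lists passed by limma, though 3 of 12 smooth muscle, 3 of 9 fibroblast, 2 of 5 cardiac and 2 of 10 brown adipocyte markers had an unadjusted p under 0.05, where 9.2% of all genes did. In diabetic against non-diabetic mice 1 of 12 endothelial markers rose (median 0.45), where 0.652% of all genes were called. By limma 9 of 12 endothelial, 8 of 12 macrophage (median 0.44) and 6 of 12 smooth muscle markers (median -0.42) had an unadjusted p under 0.05. So did 1 of 10 brown adipocyte, 1 of 9 fibroblast, 1 of 5 cardiac and 0 of 7 white adipocyte markers, and 15.2% of all genes. The part of the smooth muscle, macrophage and endothelial shifts in the members' values was not tested.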

How the data were processed

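Aortic RNA of 16 mice was hybridised to Affymetrix arrays, 1 mouse per array. The deposited values are linear signal intensity per probe set (45101 probe sets), which the authors made with MAS5, per the submitters' processing notes. Log2 was taken of the deposited intensity with no offset. Probe sets entered with a mean log2 signal above 8.581, the median over all probe sets. Of the probe sets, 34958 had 1 symbol in the platform annotation, 932 had several and 9211 had none and stayed unnamed. The brightest probe set of each gene was tested.

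Group means were fitted with limma 3.58.1 (R 4.3.3, trend, residual df 12) and p-values adjusted by Benjamini-Hochberg over 11037 genes. Precision is limited by 4 arrays per group. Promoters and hexamers were read from RefSeq, GRCm38.p6. Alternatives changed scaling, filter, probe set choice, variance model, weights, mice and covariates.

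The members and lists were chosen with earlier results of these data known. Members past the threshold were named, or the 6 with the smallest p. Values per mouse are given for members past the threshold in any comparison and for Cpt1a and Ppara. In other lists up to 4 genes past the threshold were named, by smallest p.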

Additional observations from a re-analysis of the deposited data

Results flagged for a closer look

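The RBX difference itself differed between diabetic and non-diabetic mice in 9 members by limma's interaction test. The shares of all genes called in that test are given above with the members' counts. With cre or the Actb ratio as a covariate no member was called. The calls of Acaa2, Ucp3 and Acadsb were also lost when certain single mice were left out. The interaction, RBX difference in diabetic minus that in non-diabetic mice on the log2 scale, was -1.265 for Etfb, -0.95 for Acot2, -1.15 for Angptl4, -1.30 for Acadl, -0.92 for Acads, -0.82 for Hadha, -1.21 for Acaa2, -1.61 for Ucp3 and 0.59 for Acadsb.

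Single mice stood far from their group in 10 of 124 checks of a member in a group of 4. Each value is the gap to the nearest mouse as a share of the group's range, and passed Dixon's 95% critical value, which chance alone passes in about 1 of 20 checks. Diabetic RBX mouse 4 was high in Acadl (0.984), Acadm (0.948) and Hadha (0.94), and diabetic RBX mouse 1 was low in Angptl4 (0.862). Non-diabetic RBX mouse 3 was low in Hadha (0.878). Among non-diabetic mice, mouse 4 was low in Acads (0.878), mouse 3 was high in Acadvl (0.832) and Etfb (0.89), and mouse 2 was low in Etfa (0.833) and Ucp3 (0.924).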

How the results depend on the processing

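Counts of members past the threshold and their median log2 differences moved as follows, with causes not tested. For RBX in non-diabetic mice (22 called, median 0.79) the cre covariate gave 0 and 0.31, the Actb ratio 0 and -0.31, the brown fat markers 11 and 0.37, and Ucp1 a median of 0.43. For diabetes with RBX (4 called, median -0.60) quantile normalization gave 8, a filter at the 70th percentile 7 and no intensity trend 2. Of all genes 7.75%, 10.9% and 5.61% were called in these fits, against 7.1% in the main fit. For diabetes with RBX the cre, Actb, brown fat and Ucp1 covariates gave 0, and the medians were -0.38, -0.26, -0.24 and -0.26. For the interaction (9 called, median -0.89) array weights gave 19, cre 0 and -0.54, the Actb ratio 0 and -0.22, the brown fat markers 5 and -0.40, and Ucp1 a median of -0.49. For diabetes without RBX (0 called) array weights gave 4 and the Actb ratio and cre medians of -0.021 and 0.14 (0.25 without), and for RBX in diabetic mice these gave -0.47 and -0.20 (-0.11 without).

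With the Actb ratio, log2 differences of RBX in non-diabetic mice turned to -0.12 for Acadl, -0.25 for Acaa2, -0.38 for Eci1, -0.31 for Ech1, -0.50 for Hadh, -0.47 for Slc25a20, -0.092 for Hadha, -0.75 for Pdk4, -0.61 for Acadvl, -0.37 for Decr1, -0.75 for Hadhb and -0.18 for Echs1. The Actb ratio did not overlap between non-diabetic RBX and non-diabetic mice, so these values are extrapolated and cannot be told apart from RBX. With every probe set apart, Crat turned to -0.38 for RBX in non-diabetic mice and to 0.27 in diabetes with RBX.

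Leaving out 1 mouse at a time gave 17 to 27 called members for RBX in non-diabetic mice (median 0.64 to 0.93), 1 to 20 for diabetes with RBX (-0.75 to -0.43), 6 to 21 for the interaction (-1.03 to -0.75), 0 to 0 for diabetes without RBX (0.15 to 0.38) and 0 to 0 for RBX in diabetic mice (-0.25 to -0.02). Mice of the same number did not deviate together (correlations between -0.137 and 0.181, 2 of 24 above 0.1), and a replicate block gave 21, 3, 11, 0 and 0 in the same order.

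Over all genes, the 3494 called for RBX in non-diabetic mice became 5351 with every probe set apart, 0 with cre and 174 with the Actb ratio, and the 1274 of the interaction became 0 with cre, 341 with the Actb ratio and 771 to 1530 without 1 mouse. The 784 of diabetes with RBX became 1254 with every probe set apart, 387 with only the groups compared, 48 with cre, 292 with the Actb ratio, 443 with the brown fat markers, 478 with Ucp1 and 400 to 918 without 1 mouse. The 72 of diabetes without RBX became 116 with the stricter filter, 43 with the mean over probe sets, 27 with no trend, 1209 with array weights, 184 with the block, 209 with only the groups compared, 4 with cre, 21 with the Actb ratio, 130 and 131 with the brown fat markers and Ucp1, and 1 to 334 without 1 mouse. The 5 of RBX in diabetic mice became 1 to 36 across settings. The interaction was not run with only the groups compared, as it needs all 4. Dim probe sets were left out, and the number of arrays limits all values.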
